A study of Sus scrofa with 9 samples.

Results

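Cytokines, chemokines and their receptors were examined in hatched blastocysts (HB) of the pig. The family comprised the genes whose symbol starts with IL, CCL, CCR or CSF followed by a digit, or with CXCL, TNFRSF, TNFSF or IFN, leaving out IL6 and CXCL16. Of the 7495 named genes of the array, 56 met this rule: 12 interleukin ligands, 15 interleukin receptors, 11 chemokine ligands, 2 chemokine receptors, 3 TNF ligands, 4 TNF receptors, 6 interferons and their receptors, and 3 colony-stimulating factors and their receptors. The symbol of 55 was the annotated one, and IL1B2 was found through the accession of its probe. IL4I1, an enzyme that breaks down amino acids, is included by its symbol alone and counted with the interleukin ligands.

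Each of the 9 arrays carried RNA of 5 pooled embryos in the Cy5 channel and 1 common reference in the Cy3 channel, and the 3 groups had 3 arrays each. CT HB came from chromatin transfer, in which the chromatin of a somatic donor cell is placed in an enucleated oocyte, and PA HB from parthenogenetic activation of mature oocytes without sperm. IVV HB were flushed from artificially inseminated gilts at 5.5 days after insemination per the labels. The labels give 7 hours post fertilization for both CT HB and PA HB, which is earlier than any blastocyst exists, so their age was not used. CT HB and PA HB were both produced and cultured in vitro, so that in vitro culture and origin cannot be told apart in a comparison with IVV HB. Their age at collection is not known from the labels, so a difference in age from IVV HB cannot be told apart from these either. The reference pooled RNA of all stages between germinal vesicle oocytes and older hatched blastocysts that had not yet elongated, and was the same for all groups.

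Interleukins and chemokines are secreted proteins that act through receptors on neighbouring cells. TNF ligands are mostly held on the cell surface and bind the TNF receptor family, and interferons act through receptors that turn on antiviral genes. In the pig, the conceptus itself secretes interleukin 1 beta (IL1B2), interferon gamma and interferon delta around the time it elongates and attaches, and these signals act on the uterine lining.

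Every level below is a log2 ratio of embryo pool over reference, so that 0 means as much signal as the reference and 1 means a doubled one, and every difference is a difference of 2 group means of these ratios. Changed genes are those with a limma p, adjusted by Benjamini-Hochberg over all 7495 genes, no higher than 0.05 and with a fold change of 2 or more. In PA HB, 6 of the 56 genes were higher than in IVV HB (CCL22, CCR1, IL12A, IL17REL, IL27RA and TNFRSF9) and 0 were lower. Of all genes tested, 4.34% were higher, 3.38% lower and 7.71% changed in either direction, against 10.7% of the family. In CT HB, 0 of the 56 differed from IVV HB by this test, beside 0.654% of all genes. With the unadjusted limma p, 3 of the 56 lay at or below 0.05 in CT HB against IVV HB (IL12B, IL1R2 and CCL22), beside 11% of all genes. Between CT HB and PA HB, 8 genes were lower in CT HB (CCR1, IFNG, IL11, IL12A, IL12B, IL17REL, IL27RA and TNFRSF9) and 0 were higher, beside 4.83% and 2.95% of all genes. In pools of whole embryos, fewer cells of a type and less RNA per cell cannot be told apart.

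The calls against IVV HB depended on single arrays and on scaling. Without the first IVV HB array 1 of the 56 was higher in PA HB (IL17REL), and without the second 9 were. The spread of all probes differed between groups, with interquartile ranges of 0.58 to 0.66 in CT HB, 0.85 to 1.03 in PA HB and 0.55 to 0.67 in IVV HB. Quantile normalization, which makes these spreads alike, left 0 of the 6 past both thresholds. The difference of PA HB from IVV HB was then 1.22 for IL12A (adjusted p = 0.12), 0.94 for IL17REL (adjusted p = 0.0452), 0.94 for CCR1 (adjusted p = 0.336), 0.93 for CCL22 (adjusted p = 0.0738), 0.35 for TNFRSF9 (adjusted p = 0.638) and 0.13 for IL27RA (adjusted p = 0.902). In CT HB against PA HB, 4 of the 8 still passed under it (IFNG, IL12A, IL12B and IL17REL). Scale normalization left 1 of the 6, IL17REL, past both thresholds in PA HB against IVV HB and brought IFNG, IL1B and IL1B2 past them. It multiplies each array by a factor of its own, so ratios far from 0, such as those of IFNG, IL1B and IL1B2, move most. It gave 8 genes in CT HB against PA HB, with IL1B and IL1B2 in place of CCR1 and IL11.

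The direction of the differences over the whole family, changed genes included, was uneven. In PA HB, 40 of the 56 genes had a mean above that of IVV HB, beside 50.7% of all genes, and the median difference of the family was 0.23 against 0.01 for all genes. With quantile normalization 36 means were above and the median was 0.16, against 0.024 for all genes. With scale normalization 34 were above and the median was 0.23, against 0.049 for all genes. The share of all genes above 0 was not counted under these 2 scalings, so these counts have no background beside them. The arrays of PA HB lay wholly above those of IVV HB for 15 of the 56 (15.1% of all genes) and wholly below for 1, IL19 (15.7%). The count above is 26.8% of the family and the count below 1.79%. The 15 include CXCL14, whose probes disagreed in direction. In CT HB against IVV HB, 24 of the 56 means were higher (47.8% of all genes) and the median difference was -0.04, and the arrays did not overlap for 6 of the 56 (10.7%), beside 19.2% of all genes. In CT HB against PA HB, the arrays of CT HB lay wholly below for 18 (16.2% of all genes) and wholly above for 3 (15% of all genes), with a median difference of -0.23 (-0.15 with quantile normalization). These comparisons share arrays, so their values are not independent of each other.

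**Figure D1:**
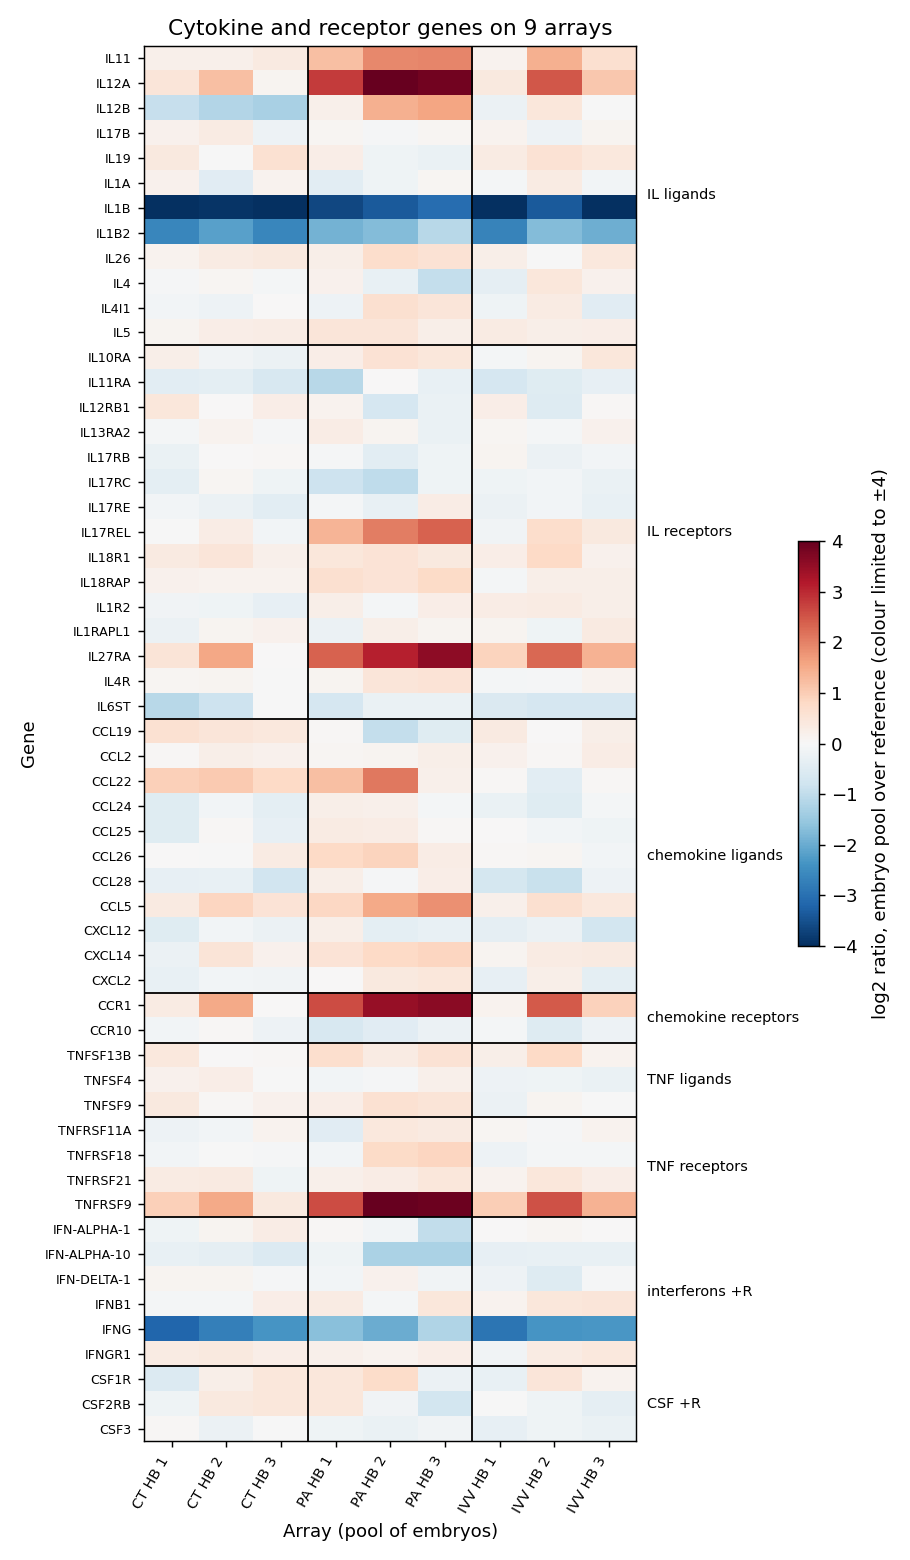
Log2 ratio of embryo pool over reference for the 56 genes (rows, grouped by role) on the 9 arrays (columns, CT HB, PA HB and IVV HB). Red marks signal above the reference and blue below it. IL12A, IL27RA, CCR1 and TNFRSF9 stand out in red in PA HB and on 1 IVV HB array, and IL1B, IL1B2 and IFNG are blue on all arrays.

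Most of the family lay near the level of the reference. The mean over the 9 arrays lay within 0.5 of 0 for 43 of the 56 genes and within 1 of 0 for 49. The 5 highest means belonged to TNFRSF9 (2.03), IL12A (1.85), IL27RA (1.75), CCR1 (1.67) and IL11 (0.89), and the 5 lowest to IL1B (-3.92), IFNG (-2.30), IL1B2 (-2.06), IL6ST (-0.57) and IFN-ALPHA-10 (-0.54). These means order each gene against its own signal in the reference and do not compare transcript amounts between genes. On all 9 arrays, 10 genes were above 0 and 5 below. Spot intensities were not used here, so a gene near 0 may be equally abundant in embryo and reference or near background in both.

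Among the interleukin ligands, 1 of 12 was higher in PA HB than IVV HB and 3 of 12 were lower in CT HB than PA HB. IL12A and IL12B encode the subunits that together form interleukin 12, a cytokine that drives interferon gamma production in lymphocytes, and IL12B is also part of interleukin 23. IL12A was at 0.48, 1.19 and 0.095 in CT HB, 2.79, 4.25 and 3.86 in PA HB, and 0.40, 2.48 and 1.08 in IVV HB. All PA HB arrays were above all others, but the lowest of them exceeded the highest IVV HB array by 0.31 only, while the IVV HB arrays spanned 2.07. IL12A was 4.97-fold higher in PA HB than IVV HB (log2 difference 2.31, SE 0.50, adjusted p = 0.0136) and 8.25-fold lower in CT HB than PA HB (-3.04, SE 0.50, adjusted p = 0.00526). The difference between CT HB and IVV HB was -0.73 (SE 0.50, adjusted p = 0.677).

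IL12B was at -0.93, -1.17 and -1.29 in CT HB, 0.20, 1.42 and 1.57 in PA HB, and -0.24, 0.44 and -0.022 in IVV HB. CT HB lay below both other groups on every array, whereas the lowest PA HB array fell within the range of IVV HB. The gene was 4.58-fold lower in CT HB than PA HB (-2.20, SE 0.32, adjusted p = 0.00478). Against IVV HB the difference was -1.19 in CT HB (SE 0.32, adjusted p = 0.147) and 1.01 in PA HB (SE 0.32, adjusted p = 0.0603), and neither passed the test.

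IL11, a cytokine of the interleukin 6 family that is needed for decidualization in mice, was at 0.19, 0.21 and 0.35 in CT HB, 1.20, 1.91 and 1.95 in PA HB, and 0.15, 1.41 and 0.64 in IVV HB. The CT HB arrays were tightly grouped and lay below all of PA HB, and the second IVV HB array lay inside the range of PA HB. IL11 was 2.71-fold lower in CT HB than PA HB (-1.44, SE 0.30, adjusted p = 0.00955). The difference of PA HB from IVV HB was 0.95 (SE 0.30, adjusted p = 0.0556), short of both thresholds. Its receptor subunits, IL11RA and the IL6ST chain that serves the interleukin 6 family, gave differences of 0.024 and 0.23 in PA HB against IVV HB (adjusted p = 0.964 and 0.594).

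IL1B, a proinflammatory cytokine, had the lowest mean ratio of the family. It was at -4.36, -3.93 and -4.11 in CT HB, -3.65, -3.36 and -3.06 in PA HB, and -5.06, -3.37 and -4.37 in IVV HB, on average 15.1-fold below the reference. IL1B2, the form made by the pig conceptus, was at -2.62, -2.17 and -2.62 in CT HB, -1.89, -1.73 and -1.12 in PA HB, and -2.67, -1.74 and -1.96 in IVV HB, on average 4.16-fold below the reference. For both genes, the PA HB arrays lay above all CT HB arrays and the second IVV HB array was the highest of its group. The difference of PA HB from IVV HB was 0.91 for IL1B (SE 0.35, adjusted p = 0.105) and 0.54 for IL1B2 (SE 0.27, adjusted p = 0.217). That of CT HB from PA HB was -0.78 for IL1B (SE 0.35, adjusted p = 0.164) and -0.89 for IL1B2 (SE 0.27, adjusted p = 0.0503). With scale normalization both genes passed both thresholds in these comparisons: PA HB lay above IVV HB by 2.53 for IL1B (adjusted p = 0.0153) and 1.34 for IL1B2 (adjusted p = 0.0381), and CT HB differed from PA HB by -2.11 (adjusted p = 0.0329) and -1.60 (adjusted p = 0.0198). Both genes lie far below 0, where this scaling moves ratios most. Without the second IVV HB array, IL1B passed in PA HB against IVV HB too. The genes are close copies, and how far each probe binds the transcript of the other was not tested.

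The remaining genes counted as interleukin ligands were IL17B, IL19, IL1A, IL26, IL4, IL5 and the enzyme IL4I1. None of these 7 passed the test in any of the 3 comparisons. IL19, of the interleukin 10 family, was at 0.40, -0.022 and 0.59 in CT HB, 0.28, -0.16 and -0.27 in PA HB, and 0.32, 0.56 and 0.42 in IVV HB. It was the sole gene of the family with all PA HB arrays below IVV HB, by a difference of -0.49 (SE 0.21, adjusted p = 0.149). IL5, an eosinophil growth factor, was above 0 on all arrays, between 0.11 and 0.50.

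**Figure D2:**
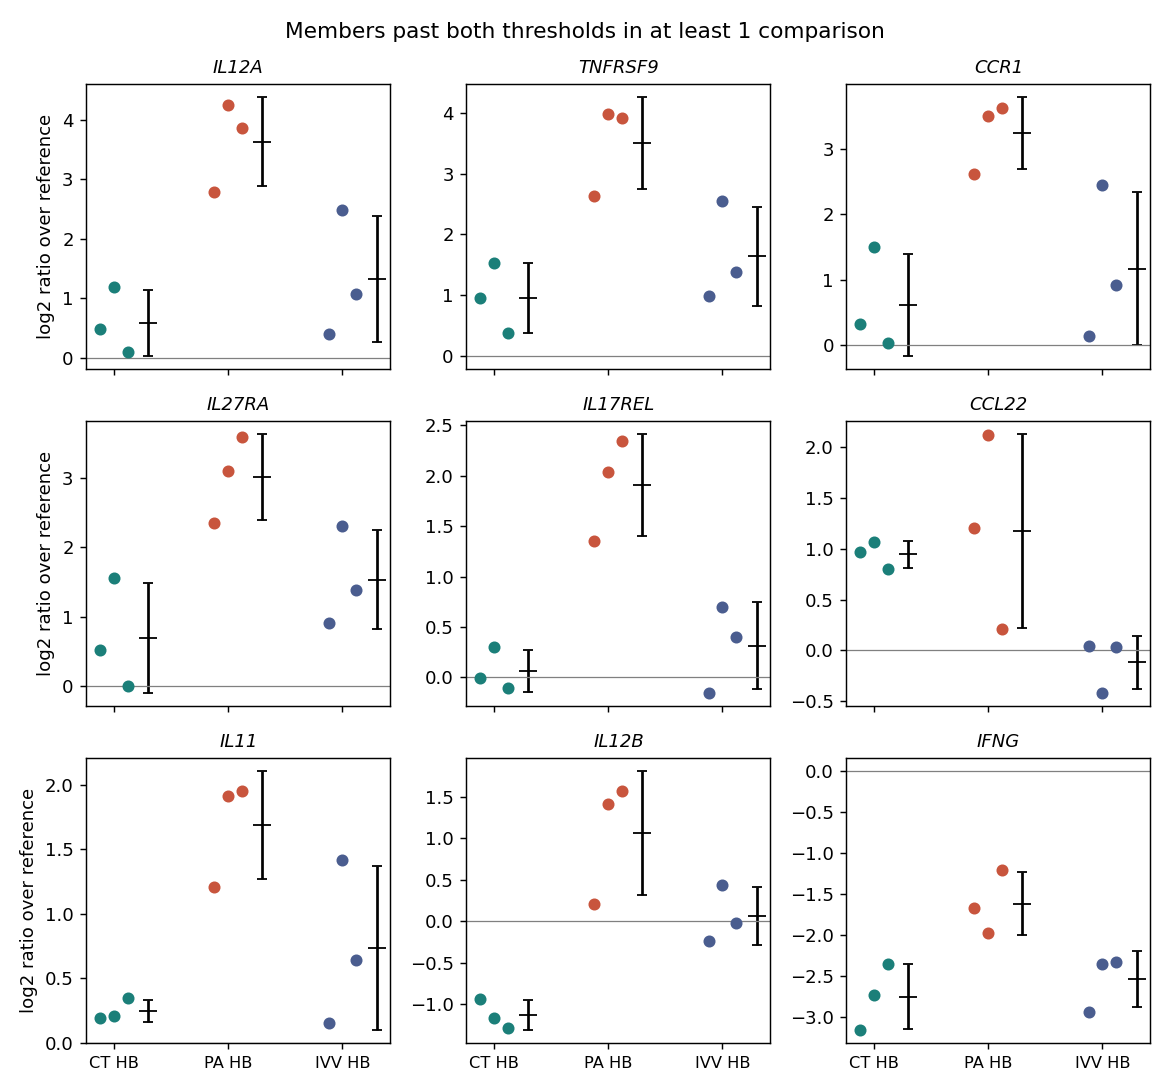
Log2 ratio over reference of the 9 genes that changed in at least 1 comparison, for each array of CT HB, PA HB and IVV HB (coloured points), with the group mean and SD (black, n = 3). IL12A, TNFRSF9, CCR1 and IL27RA share a high second IVV HB array just below the lowest PA HB array, whereas CCL22 is high in CT HB and in 2 of 3 PA HB arrays. Vertical axes differ between panels.

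Among the interleukin receptors, 2 of 15 were higher in PA HB than IVV HB and the same 2 were lower in CT HB than PA HB. IL17REL, a receptor-like relative of the interleukin 17 receptors, was at -0.0041, 0.30 and -0.10 in CT HB, 1.35, 2.04 and 2.34 in PA HB, and -0.16, 0.70 and 0.40 in IVV HB. It showed the widest separation of the family between PA HB and IVV HB, with 0.65 between the lowest PA HB array and the highest IVV HB array. IL17REL was 3.03-fold higher in PA HB than IVV HB (1.60, SE 0.28, adjusted p = 0.00529) and 3.60-fold lower in CT HB than PA HB (-1.85, SE 0.28, adjusted p = 0.00478).

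IL27RA, the receptor subunit that binds interleukin 27 together with IL6ST, was at 0.52, 1.55 and 0.0017 in CT HB, 2.35, 3.11 and 3.59 in PA HB, and 0.90, 2.31 and 1.38 in IVV HB. The lowest PA HB array exceeded the highest IVV HB array by 0.037, so the groups were barely separated. IL27RA was 2.79-fold higher in PA HB than IVV HB (1.48, SE 0.44, adjusted p = 0.0472) and 4.99-fold lower in CT HB than PA HB (-2.32, SE 0.44, adjusted p = 0.00732). IL6ST itself was below 0 on all arrays, from -1.11 to -0.018 in CT HB, from -0.68 to -0.27 in PA HB and from -0.67 to -0.58 in IVV HB.

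The other interleukin receptors differed less. IL18RAP, the accessory subunit of the interleukin 18 receptor, was at 0.16, 0.15 and 0.13 in CT HB, 0.64, 0.56 and 0.77 in PA HB, and -0.089, 0.25 and 0.24 in IVV HB. PA HB lay above both other groups without overlap, by 0.53 over IVV HB (SE 0.16, adjusted p = 0.0511), and CT HB differed from PA HB by -0.51 (SE 0.16, adjusted p = 0.0554). IL18R1, the subunit that binds interleukin 18, gave 0.042 for PA HB against IVV HB (adjusted p = 0.908).

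IL1R2, a decoy receptor that captures interleukin 1 without signalling, was at -0.15, -0.19 and -0.32 in CT HB, 0.23, -0.066 and 0.27 in PA HB, and 0.31, 0.32 and 0.25 in IVV HB. CT HB lay below both other groups on all arrays. Its difference from IVV HB was -0.51 (SE 0.16, adjusted p = 0.222) and from PA HB -0.36 (SE 0.16, adjusted p = 0.16).

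For IL4R, which binds interleukin 4 and interleukin 13, the difference of PA HB from IVV HB was 0.38 (SE 0.17, adjusted p = 0.168). For IL10RA, a subunit of the interleukin 10 receptor, it was 0.28 (SE 0.20, adjusted p = 0.383). For IL12RB1, a receptor subunit for interleukin 12, it was -0.19 (SE 0.25, adjusted p = 0.656), against 2.31 for the ligand subunit IL12A. IL11RA, IL13RA2, IL17RB, IL17RC, IL17RE, IL18R1 and IL1RAPL1 passed no test either. Both probes of IL17RE gave small differences of PA HB from IVV HB, 0.31 and 0.066.

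Among the chemokine ligands, 1 of 11 was higher in PA HB than IVV HB, and 9 of 11 means were above those of IVV HB. CCL22, which attracts regulatory T cells through its receptor CCR4, was at 0.97, 1.06 and 0.80 in CT HB, 1.20, 2.11 and 0.21 in PA HB, and 0.041, -0.42 and 0.031 in IVV HB. Both CT HB and PA HB lay above IVV HB on every array. The PA HB arrays spanned 1.90, the widest range of any member in that group, while the CT HB arrays spanned 0.26. CCL22 was 2.45-fold higher in PA HB than IVV HB (1.29, SE 0.37, adjusted p = 0.0395). In CT HB it was 2.08 times the level of IVV HB (1.06, SE 0.37, adjusted p = 0.268), which did not pass the test. The difference of CT HB from PA HB was -0.23 (SE 0.37, adjusted p = 0.737) and was above 0 with quantile normalization (0.54) and scale normalization (0.21). With quantile normalization, CCL22 passed both thresholds in CT HB against IVV HB (1.48, adjusted p = 0.0236). Its call in PA HB was lost when any single array other than the third PA HB array was left out.

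CCL5 attracts T cells and monocytes and binds CCR1, among other receptors. Averaged over its 2 probes, it was at 0.35, 0.86 and 0.53 in CT HB, 0.82, 1.51 and 1.81 in PA HB, and 0.20, 0.64 and 0.43 in IVV HB. PA HB lay above IVV HB on all arrays, by 0.96 (SE 0.25, adjusted p = 0.0286), which was under the fold threshold. The probes disagreed in size. Probe 1 gave 0.37 for PA HB against IVV HB (SE 0.28, adjusted p = 0.438 in a fit over single probes) and probe 2 gave 1.56 (SE 0.28, adjusted p = 0.00511). In CT HB against PA HB the probes gave -0.27 (adjusted p = 0.599) and -1.34 (adjusted p = 0.00824).

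The 3 probes of CXCL14, a chemokine expressed widely in epithelia, disagreed in direction. Probe 1 was at 0.69, 0.93 and 0.15 in CT HB, 1.43, 3.56 and 3.29 in PA HB, and 0.76, 1.75 and 1.61 in IVV HB. Probe 3 was at -1.29, 0.13 and 0.34 in CT HB, -0.42, -1.48 and -1.25 in PA HB, and -0.37, -0.95 and -0.59 in IVV HB. In PA HB against IVV HB, probe 1 gave 1.39 (adjusted p = 0.0705 in the fit over single probes). Probe 2 gave 0.41 (adjusted p = 0.213) and probe 3 gave -0.41 (adjusted p = 0.54). In CT HB against PA HB, probe 1 gave -2.17 (SE 0.47, adjusted p = 0.0101), probe 2 gave -0.33 (SE 0.20, adjusted p = 0.325) and probe 3 gave 0.78 (SE 0.40, adjusted p = 0.227). Their mean differed by -0.57 (SE 0.20, adjusted p = 0.083), so the gene as a whole was not counted as changed, and its value depends on which probe is read.

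**Figure D3:**
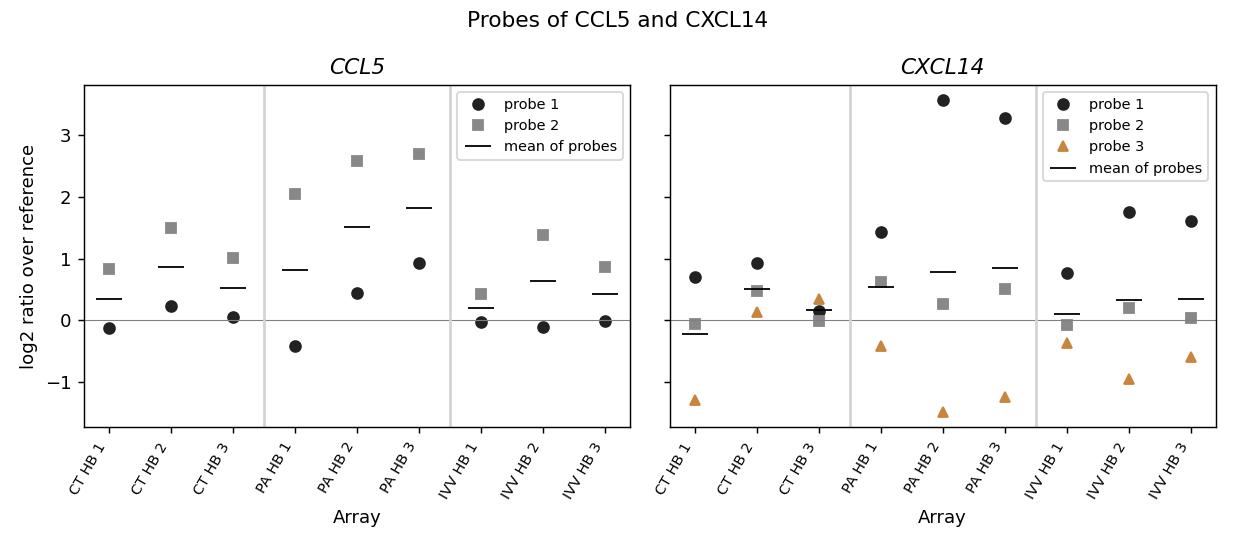
Log2 ratio over reference of each probe of CCL5 (2 probes) and CXCL14 (3 probes) on the 9 arrays, with the mean of the probes as a short line. Probe 2 of CCL5 lies above probe 1 on all arrays. Probes 1 and 3 of CXCL14 spread farthest apart in PA HB, in opposite directions from 0.

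CCL19, which guides lymphocytes and dendritic cells through CCR7, ran against the trend of the family. It was at 0.61, 0.47 and 0.44 in CT HB, 0.034, -0.94 and -0.47 in PA HB, and 0.36, 0.029 and 0.25 in IVV HB. All CT HB arrays were above all others. The difference of CT HB from PA HB was 0.97 (SE 0.23, adjusted p = 0.0171), just under a doubling, and that of PA HB from IVV HB was -0.67 (SE 0.23, adjusted p = 0.0743). CCL19 was the sole gene of the family higher in CT HB than PA HB by adjusted p alone, beside 6.87% of all genes.

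CCL28, a chemokine of mucosal surfaces that binds CCR10, was at -0.33, -0.30 and -0.76 in CT HB, 0.22, -0.032 and 0.27 in PA HB, and -0.69, -0.91 and -0.19 in IVV HB. PA HB lay above IVV HB by 0.75 (SE 0.22, adjusted p = 0.0406). CCL26, an eotaxin that attracts eosinophils, was at 0.024, -0.0059 and 0.32 in CT HB, 0.79, 0.88 and 0.29 in PA HB, and 0.052, 0.088 and -0.10 in IVV HB. Its difference of PA HB from IVV HB was 0.64 (SE 0.19, adjusted p = 0.0489). Neither CCL26 nor CCL28 reached the fold threshold. By adjusted p alone, 10 of the 56 genes were higher in PA HB than IVV HB (the 6 above with CCL26, CCL28, CCL5 and IFNG), beside 6.99% of all genes.

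Of the others, CCL25, which draws lymphocytes to the gut and thymus, gave 0.32 for PA HB against IVV HB (SE 0.18, adjusted p = 0.265). CXCL12, the ligand of CXCR4, gave 0.30 (SE 0.21, adjusted p = 0.377). CCL2, CCL24 and CXCL2 passed no test. CCL2, which attracts monocytes, lay between 0.034 and 0.30 on the 9 arrays and was among the steadiest genes of the family.

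Of the 2 chemokine receptors, CCR1, which binds CCL5 and other inflammatory chemokines, was at 0.32, 1.501 and 0.025 in CT HB, 2.60, 3.50 and 3.62 in PA HB, and 0.14, 2.44 and 0.92 in IVV HB. The IVV HB arrays spanned 2.30, the widest range of any member in that group, and the lowest PA HB array lay 0.16 above the highest of them. CCR1 was 4.21-fold higher in PA HB than IVV HB (2.07, SE 0.53, adjusted p = 0.0264) and 6.16-fold lower in CT HB than PA HB (-2.62, SE 0.53, adjusted p = 0.00885). The call of CT HB against PA HB was lost without the third CT HB array. CCR10, the receptor of CCL28, gave -0.18 for PA HB against IVV HB (SE 0.18, adjusted p = 0.558) and 0.36 for CT HB against PA HB (SE 0.18, adjusted p = 0.211).

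TNFRSF9, a costimulatory receptor of activated T cells, had the highest mean of the family. It was at 0.95, 1.52 and 0.38 in CT HB, 2.62, 3.98 and 3.91 in PA HB, and 0.98, 2.55 and 1.38 in IVV HB. The lowest PA HB array lay 0.078 above the highest IVV HB array. TNFRSF9 was 3.65-fold higher in PA HB than IVV HB (1.87, SE 0.45, adjusted p = 0.0204) and 5.87-fold lower in CT HB than PA HB (-2.55, SE 0.45, adjusted p = 0.00629). Its ligand TNFSF9 was at 0.39, 0.040 and 0.19 in CT HB, 0.28, 0.59 and 0.50 in PA HB, and -0.23, 0.095 and -0.026 in IVV HB. PA HB was above IVV HB on all arrays for the ligand too, by 0.51 (SE 0.17, adjusted p = 0.0738), which did not pass the test.

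TNFRSF18, a receptor of regulatory T cells, was at -0.11, -0.028 and -0.042 in CT HB, -0.12, 0.76 and 0.86 in PA HB, and -0.19, -0.093 and -0.078 in IVV HB. Its difference of PA HB from IVV HB (0.62, SE 0.24, adjusted p = 0.105) came from 2 of 3 PA HB arrays. TNFSF4, a costimulatory ligand, gave 0.35 for CT HB against IVV HB (SE 0.16, adjusted p = 0.47), with no overlap of the arrays. TNFSF13B, a survival factor of B cells, gave 0.13 for PA HB against IVV HB (SE 0.21, adjusted p = 0.721). TNFRSF11A, a receptor of osteoclast precursors, and TNFRSF21, a death domain receptor, gave 0.042 (SE 0.23, adjusted p = 0.926) and 0.033 (SE 0.19, adjusted p = 0.928).

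Among the interferons, IFNG (interferon gamma) was at -3.16, -2.73 and -2.36 in CT HB, -1.67, -1.98 and -1.21 in PA HB, and -2.93, -2.36 and -2.33 in IVV HB. It was below the reference on all arrays, on average 4.93-fold, and nearest to it in PA HB, where no array overlapped either other group. IFNG was 2.19-fold lower in CT HB than PA HB (-1.13, SE 0.26, adjusted p = 0.0162). This call was lost without the third PA HB array or the first CT HB array. PA HB lay above IVV HB by 0.92 (SE 0.26, adjusted p = 0.0403), under the fold threshold, and by 1.79 with scale normalization (adjusted p = 0.00692), past both thresholds. IFNGR1, a subunit of its receptor, gave -0.0040 for PA HB against IVV HB (SE 0.18, adjusted p = 0.991) and 0.13 for CT HB against the same group (SE 0.18, adjusted p = 0.864).

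The type I interferons did not pass the test in any comparison. IFN-ALPHA-10 was at -0.29, -0.37 and -0.53 in CT HB, -0.18, -1.26 and -1.28 in PA HB, and -0.34, -0.30 and -0.30 in IVV HB. Its difference of PA HB from IVV HB was -0.59 (SE 0.26, adjusted p = 0.161) and rested on 2 PA HB arrays. IFN-ALPHA-1 gave -0.38 (SE 0.25, adjusted p = 0.342), IFNB1 (interferon beta) gave -0.12 (SE 0.20, adjusted p = 0.729) and IFN-DELTA-1 gave 0.23 (SE 0.18, adjusted p = 0.418). The interferon alpha genes form a family of close copies, and their probes may not tell the copies apart.

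The colony-stimulating factors and their receptors did not differ by the test. For PA HB against IVV HB, CSF1R, the macrophage growth factor receptor, gave 0.20 (SE 0.32, adjusted p = 0.72), CSF2RB, the shared subunit of the receptors for interleukin 3, interleukin 5 and CSF2, gave 0.049 (SE 0.28, adjusted p = 0.928), and CSF3, a granulocyte growth factor, gave 0.059 (SE 0.16, adjusted p = 0.84). CSF2RB gave 0.42 for CT HB against IVV HB (SE 0.28, adjusted p = 0.654). Over the 17 genes outside the rule by which genes were named (IL17B, IL19, IL1A, IL26, IL4, IL4I1, IL5, IL11RA, IL13RA2, IL17RB, IL17RC, IL17RE, IL18R1, IL1RAPL1, CCL2, CCL24 and CXCL2), differences ran from -0.49 to 0.44 in PA HB against IVV HB, from -0.11 to 0.084 in CT HB against IVV HB and from -0.48 to 0.51 in CT HB against PA HB.

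**Figure D4:**
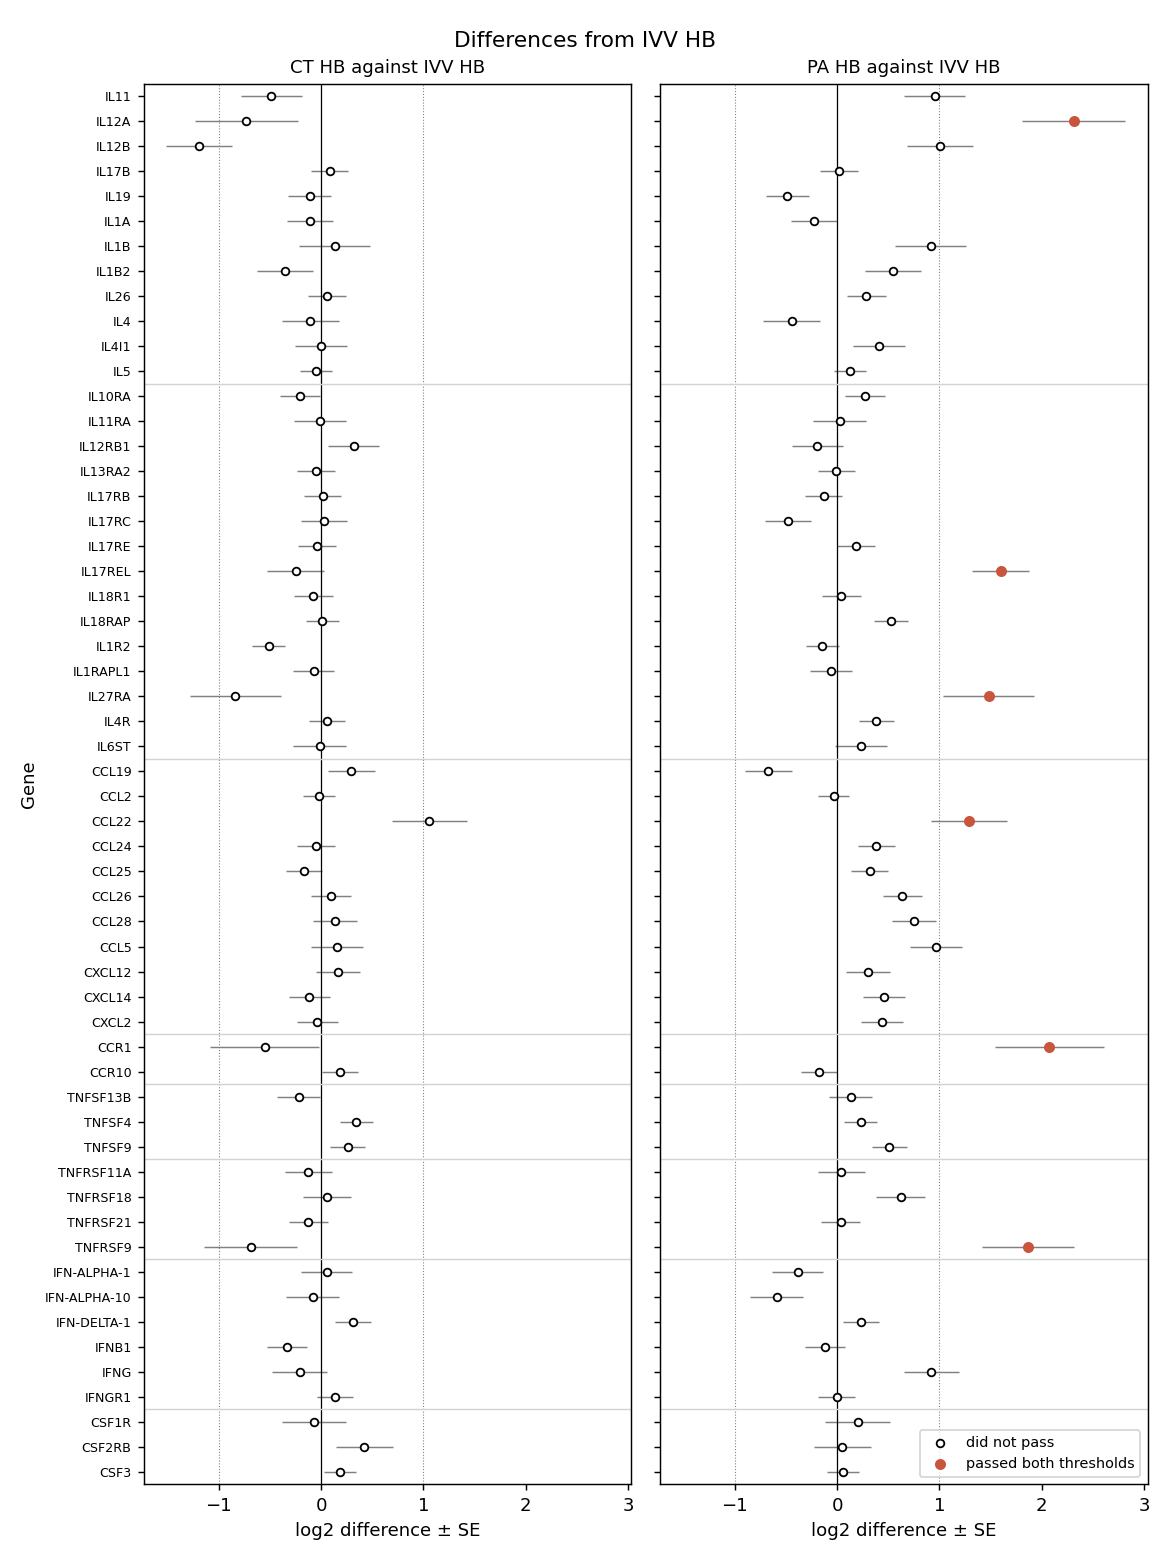
Difference of group means (log2, with the SE of the limma fit) from IVV HB for the 56 genes, for CT HB (left) and PA HB (right). Filled points passed both thresholds, and dotted lines mark a doubling and a halving. The 6 filled points are all in PA HB, and the differences of CT HB run from -1.19 (IL12B) to 1.06 (CCL22).

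Of the 6 changed genes in PA HB against IVV HB, 5 followed a pattern that many probes of the array shared. Among all 23971 probes, 483 (2.01%) correlated at 0.97 or above with the densest pattern over the 9 arrays. Their median was 0.44, 1.23 and 0.079 in CT HB, 2.40, 3.57 and 3.60 in PA HB, and 0.41, 2.33 and 1.11 in IVV HB, so that the second IVV HB array stood next to the first PA HB array. A probe of this kind was found for 195 genes (2.6%), and for 5 of the 56 (8.93%): CCR1, IL12A, IL17REL, IL27RA and TNFRSF9. In each of these 5, the second IVV HB array ranked 4 of 9, directly below the 3 PA HB arrays. This order follows from their choice by correlation with the pattern and is no separate result. The correlation of the gene with the pattern was 0.971 for IL17REL, just inside the limit, and 0.960 for IL11, just outside it.

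Among the 325 genes that were higher in PA HB against IVV HB, 117 (36%) had such a probe, and of the 362 lower in CT HB than PA HB, 156 (43.1%) did. The pattern is itself highest in PA HB, so large shares here are no separate result. With these probes left out, 1 of 51 genes of the family was higher in PA HB than IVV HB (CCL22) and 0 were lower. Of all 7393 genes left, 210 were higher and 256 lower (6.3% in either direction). In CT HB against PA HB, 3 of 51 were then lower (IFNG, IL11 and IL12B) and 0 higher, beside 207 lower and 219 higher of the 7393 (5.76% in either direction). In CT HB against IVV HB 0 changed, beside 0.812%. What the probes of the pattern have in common was not tested.

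**Figure D5:**
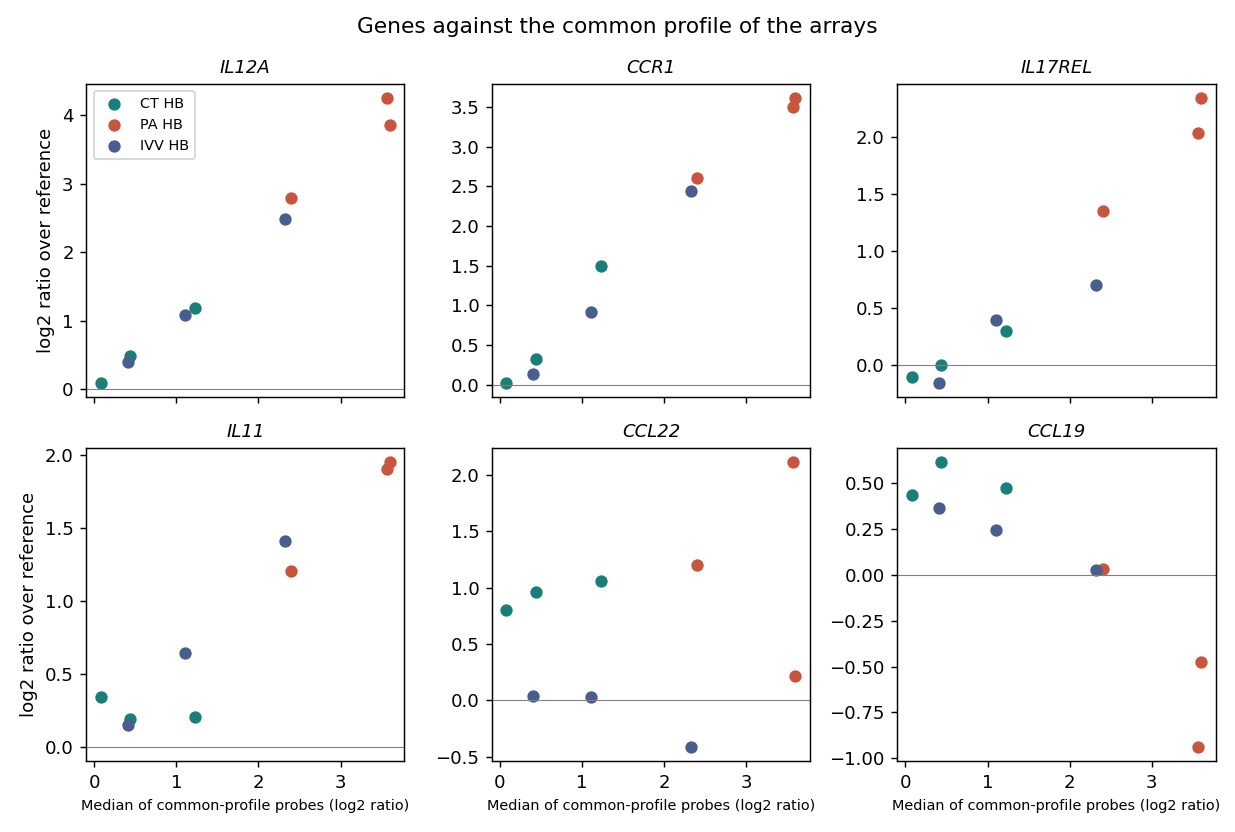
Log2 ratio over reference of 6 genes (vertical axis) against the median of the 483 probes of the shared pattern (horizontal axis), 1 point per array of CT HB, PA HB and IVV HB. IL12A, CCR1 and IL17REL, picked by their correlation with the pattern, rise with it across all groups, and IL11 nearly so. CCL22 is set apart in CT HB, and CCL19 falls as the pattern rises.

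Other genes that send or relay these signals were read from lists. The counts of these lists, and of the cell markers below, stand beside the following shares of all genes. In PA HB against IVV HB 4.34% were higher and 3.38% lower, and in CT HB against IVV HB 0.654% changed. In CT HB against PA HB 2.95% were higher and 4.83% lower. Of 40 listed further ligands and receptors, all but IL6ST outside the naming rule, 17 were measured, of which 3 were higher in PA HB than IVV HB, 0 were lower and 0 changed in CT HB against IVV HB. CD70, a TNF family ligand, was at 1.07, 1.94 and 1.31 in CT HB, 2.40, 1.91 and 2.68 in PA HB, and -0.55, 0.58 and -0.20 in IVV HB. PA HB lay above IVV HB by 2.38 (SE 0.32, adjusted p = 0.0019), and CT HB, also above IVV HB on all arrays, by 1.49 (SE 0.32, adjusted p = 0.06).

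MIF, a cytokine that acts on macrophages, was at 1.24, 1.55 and 1.46 in CT HB, 2.37, 2.55 and 2.35 in PA HB, and -0.49, 0.69 and 1.08 in IVV HB. Its 3 PA HB arrays were close together and 2.00 above IVV HB on average (SE 0.32, adjusted p = 0.0037). CXCR4, the receptor of CXCL12, was 1.99 higher in PA HB than IVV HB (SE 0.51, adjusted p = 0.0268) and lower in CT HB than PA HB (-2.68, SE 0.51, adjusted p = 0.0073), and its probe followed the shared pattern. The PA HB and IVV HB arrays of CXCR4 overlapped, and its call against IVV HB was lost with quantile or scale normalization and without the second or the third PA HB array or the first or the third IVV HB array. MIF lost its call with quantile normalization.

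Of 42 listed genes that relay signals from TNF and interleukin 1 receptors to NF-kappaB, 20 were measured. NFKBIA, which holds NF-kappaB in the cytoplasm and is itself induced by it, was the sole one to change. It was at -0.37, -0.16 and -1.06 in CT HB, 1.03, 2.86 and 2.55 in PA HB, and -0.11, 0.53 and 0.53 in IVV HB, with all PA HB arrays above all others. PA HB was 1.83 above IVV HB (SE 0.42, adjusted p = 0.0171), and CT HB differed from PA HB by -2.68 (SE 0.42, adjusted p = 0.00478). The call of PA HB against IVV HB was lost with quantile or scale normalization and without the second or the third PA HB array or the first IVV HB array. The median of the 20 genes was 0.27 when PA HB were set against IVV HB and -0.25 between CT HB and PA HB.

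Of 25 listed genes of the JAK-STAT relay, through which most interleukin and interferon receptors signal, 12 were measured and 0 changed in any comparison, with medians of -0.033 for PA HB and -0.064 for CT HB against IVV HB. Of 38 listed genes that interferons induce or that control them, 19 were measured. In PA HB and in CT HB, 0 of them differed from IVV HB, with medians of 0.059 and 0.027. IFI30, an interferon gamma-inducible lysosomal enzyme, was higher in CT HB than PA HB (1.17, SE 0.31, adjusted p = 0.0258), with 0.97, 0.40 and 1.12 in CT HB, 0.27, -1.03 and -0.26 in PA HB, and -0.14, -0.57 and -0.51 in IVV HB. This call was lost without the second or the third PA HB array or the first or the third CT HB array.

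Markers of other cells were set beside these values. Of 20 leukocyte and macrophage markers, 11 were measured, and their array means ran from 0.56 to 0.77 in CT HB, from 0.34 to 0.69 in PA HB and from -0.021 to 0.16 in IVV HB. The array medians overlapped, from 0.13 to 0.40 in CT HB, from 0.015 to 0.37 in PA HB and from 0.084 to 0.19 in IVV HB. AIF1 alone passed the test, in CT HB (4.98 above IVV HB) and in PA HB (4.40 above it), while PTPRC, the pan-leukocyte marker, lay between -0.16 and 0.55 on all arrays. Of 14 oocyte markers, 12 were measured. Of these, 6 were higher in PA HB than IVV HB (4.34% of all genes) and 9 lower in CT HB than PA HB (4.83% of all genes). Their array medians ran from -3.13 to -2.85 in CT HB, from -2.30 to -1.95 in PA HB and from -3.17 to -2.46 in IVV HB. Trophectoderm markers, 11 of 15 measured, had array means of 0.32 to 0.41 in CT HB, 0.51 to 0.62 in PA HB and 0.32 to 0.50 in IVV HB. In PA HB against IVV HB, the keratin KRT8 was higher (1.09, adjusted p = 0.0199) and its partner KRT18 lower (-1.12, adjusted p = 0.00692). By quantitative PCR, the study found both keratins lower in PA HB than IVV HB, so the methods differ in direction for KRT8.

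Of 6 measured markers of inner cell mass and hypoblast, GATA6, a hypoblast transcription factor, was higher in PA HB against IVV HB (2.06, adjusted p = 0.00166) and lower in CT HB against PA HB (-1.55, adjusted p = 0.00535). The list was mixed, with 4 of the 6 above and 2 below 0 in PA HB against IVV HB (median 0.38). In CT HB against PA HB 1 was above and 5 below (median -0.098), and 1 was higher by adjusted p alone. Of 7 measured fibroblast markers, VIM (vimentin) was higher in PA HB than IVV HB (1.21, adjusted p = 0.0196). It was lower in CT HB than PA HB (-1.01, adjusted p = 0.0378). Of the 7, 5 were above and 2 below 0 in PA HB against IVV HB (median 0.057). In CT HB against PA HB 3 were above and 4 below (median -0.053). Of 6 markers of endometrial epithelium, UPTI was higher in CT HB against PA HB (1.01, adjusted p = 0.036). The list as a whole did not follow it: 4 of the 6 were below 0, with a median of -0.036, and 1 was lower by adjusted p alone. Of 9 markers of cumulus and granulosa cells 0 changed. The part of these marker differences in the cytokine and receptor values was not tested.

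Replicate spread differed between the groups. The median SD over the 56 genes was 0.19 in CT HB, 0.29 in PA HB and 0.21 in IVV HB, beside 0.20, 0.27 and 0.20 over all genes.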

How the data were processed

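The 9 arrays (3 each of CT HB, PA HB and IVV HB) were the custom porcine embryo array of the study, hybridized with amplified RNA. The deposited values are log2 ratios of Cy5 (embryo pool) over Cy3 (reference) for 23971 probes. The authors subtracted the background and applied global loess normalization within each array in FlexArray, and stated no scaling between arrays. Dyes were not swapped, so that gene-specific dye effects remain in the ratios, though not in differences between groups. The log base and direction are not written beside the values. Signed values with array medians from -0.11 to -0.026 fit a log scale, base 2 was assumed, and the direction was checked on 12 oocyte genes, which the reference holds in excess (median -2.62, 10 below 0 on all arrays). Neither spot intensities nor the positive-spot filter of the study were used here.

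GEO's platform annotation names a gene for 10344 probes (43.2%) and leaves 13627 without a symbol. Accessions were given for 2748 probes, and 1567 of these matched RefSeq's table for Sscrofa11.1. By accession 65 probes were renamed, and by a unique synonym 134. For 11 the accession belonged to another gene and the annotated symbol stayed. Averaging the probes of each gene gave 7495 genes. Of the 56 genes, 52 had 1 probe and 4 had several (CXCL14 3, and CCL5, IL17RE and CSF3 2 each). No genomic positions or sequences are given.

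A group-means model on all 9 arrays was fitted by lmFit and eBayes (limma 3.58.1, R 4.3.3), with two-sided p-values adjusted by Benjamini-Hochberg over 7495 genes. The step was tested on simulated data. The number of arrays limits the precision. Design text calls the pools biological replicates but does not say that they came from separate collections or runs, so the p-values reflect only how far these pools spread, which may be technical. The genes and lists were chosen with earlier results of these data known. Genes are named with values where they passed both thresholds in any comparison, had 1 of the 4 smallest adjusted p of their role against IVV HB, had probes that disagree, or had 1 of the 5 highest or lowest means. Changed genes of the lists are named too. IL19, CCL2 and IL5, and AIF1 and PTPRC, were added after their values were seen, as were the receptor partners IL11RA and IL18R1. The alternatives tried were the arrays of each comparison alone, a replicate block, median centring, quantile and scale normalization, the median of probes, single probes, a variance filter, a robust prior, other thresholds, the shared-pattern probes left out, and each array left out in turn. Figures were drawn with matplotlib.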

Additional observations from a re-analysis of the deposited data

How the results depend on the processing

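No named gene reversed a called direction under any alternative, but the counts moved. For PA HB against IVV HB, the 6 changed genes of the family became 0 with quantile normalization, 4 with scale normalization (IFNG, IL17REL, IL1B and IL1B2), 10 at an adjusted p alone or at a fold change of 1.5, and 1 (CCL22) without the shared-pattern probes. For CT HB against IVV HB, the 0 became 2 (CCL22 and IL12B) with quantile normalization or with these arrays compared alone, and 1 (IL12B) with scale normalization. For CT HB against PA HB, the 8 became 4 with quantile normalization (IFNG, IL12A, IL12B and IL17REL) and 3 without the shared-pattern probes. The cause was not tested, except that leaving out probes removes the 5 genes that follow the pattern.

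With each array left out in turn, the family count ran from 1 (without the first IVV HB array) to 9 (without the second) for PA HB against IVV HB, and was 2 without the second PA HB or the third IVV HB array and 3 without the third PA HB array. It ran from 0 to 1 for CT HB against IVV HB (IL12B, without the first PA HB array) and from 7 to 11 for CT HB against PA HB. IL17REL kept its call against IVV HB in PA HB in all settings that held its probe except quantile normalization. CCL22 lost it in 11 of 21 settings, 8 of them arrays left out (all but the third PA HB array), IL27RA in 9 of 20, TNFRSF9 in 7 of 20, CCR1 in 6 of 20 and IL12A in 4 of 20. Of the listed genes outside the family, CXCR4 lost it in 6 of 20, NFKBIA in 5 of 21, MIF in 1 and CD70 in 0 of 21.

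Over all genes, the 578 changed in PA HB against IVV HB became 316 with quantile normalization, 911 over single probes, 1040 by adjusted p alone and 1017 at a fold change of 1.5, and 273 to 755 with arrays left out. The 49 in CT HB against IVV HB became 130 with quantile and 105 with scale normalization, 82 over single probes and 76 without the least variable genes, and 20 to 73 with arrays left out. The 583 in CT HB against PA HB became 371 with quantile normalization, 1081 by adjusted p alone and 1054 at a fold change of 1.5, and 326 to 790 with arrays left out. Scaling also moved the split of directions. The share of changed genes that were higher was 56.2% in PA HB against IVV HB, but 37.7% with quantile and 67.7% with scale normalization. It was 87.8% in CT HB against IVV HB (76.2% and 73.3%) and 37.9% in CT HB against PA HB (60.6% and 26%).

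The replicate number as a block gave 7, 0 and 8 changed genes of the family in PA HB against IVV HB, CT HB against IVV HB and CT HB against PA HB. Deviations from the group mean correlated from -0.15 to 0.31 between samples of the same number. Between samples of different numbers they ran from -0.42 to 0.26. The same-number values were 0.029 to 0.21 in PA HB against IVV HB and -0.014 to 0.31 in CT HB against IVV HB. In CT HB against PA HB they were -0.15 to 0.10. With 3 such pairs per comparison, whether the numbers pair the samples cannot be decided. No outlier test was run, since groups had 3 arrays. Without spot intensities, the signal over background that limits each gene is unknown.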
